A study of Caenorhabditis elegans with 19 samples.

Results

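The genes mab-3, mab-23, dmd-3 and lin-32 of the nematode Caenorhabditis elegans encode transcription factors that build the male body, and their messenger RNA levels were followed through 3 stages of an RNA sequencing series. They were chosen by WormBase gene name, and all 4 were found among the 21975 genes of each table. The series measured poly(A) RNA from whole worm populations in 19 libraries, with levels given as FPKM, that is, fragments per kilobase of transcript scaled for library depth, a scale on which genes of different length can be compared. The double mutant EKM198, which carries xol-1 (ne4472) and sex-1 (gk829), was sampled as early embryos (n = 3), as L1 larvae fed for 3 h (n = 4) and as L3 larvae fed for 24 h (n = 4). The single mutant WM458, xol-1 (ne4472), and the wild-type Bristol strain N2 were sampled as L3 larvae only (n = 4 each). Both mutant strains carry the same xol-1 allele, both mutated genes lie on X, and each genotype was represented by 1 strain. The labels give neither the share of males in a population nor whether replicates were separate cultures, so the p-values measure only the spread between these libraries.

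In the worm, the number of X chromosomes relative to autosomes sets the activity of xol-1, a switch that is on in male and off in hermaphrodite embryos, and the X-linked gene sex-1 helps to turn xol-1 down. The signal passes through her-1, tra-2 and the fem genes to TRA-1, a zinc finger protein that represses male genes in hermaphrodite cells. DM domain proteins act at the end of this pathway, as Doublesex does in flies, and several are used in both sexes in particular neurons. lin-32 is the worm's atonal gene, a basic helix-loop-helix (bHLH) factor that makes neuroblasts, including those of the sensory rays of the male tail and of touch neurons that both sexes have.

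In the annotation of genome build WBcel235, mab-3 (WBGene00003100) lies on chromosome II at 9732137 to 9738035 on the plus strand, with 3 transcripts of up to 6 exons. mab-23 (WBGene00003114) lies on chromosome V at 10633058 to 10635525 on the plus strand, and shares its span with 1 non-coding RNA gene on the same strand and 2 on the other. dmd-3 (WBGene00012832) lies on chromosome V at 19650025 to 19655251 on the minus strand and shares its span with 1 non-coding RNA gene of the same strand. lin-32 (WBGene00003018) is the only one of the 4 on X, at 2229055 to 2230122 on the minus strand, with 1 transcript of 619 bases in 3 exons. mab-3 and lin-32 share their span with no annotated gene. These spans include introns, and whether exons overlap was not examined. Whether fragments were counted by strand is not given in the sources used here. The levels of mab-23 and dmd-3 may therefore include fragments of their overlapping genes.

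A level of 1 FPKM on a transcript of 1 kb stood for 28.1 to 35.5 fragments in the embryo libraries, 14.1 to 19.8 at L1 and 20.8 to 34.8 at L3, as read from the spacing of the lowest values. Each L3 library correlated with the others of its genotype at a mean Pearson r of 0.985 to 0.989 across genes, on the log2(FPKM + 1) scale. xol-1 itself was at 0 in the 4 single-mutant libraries and lay between 0 and 0.12 FPKM in the double mutant and between 0 and 0.0248 FPKM in wild type at L3, so its level did not check the labels. sex-1 lay between 3.36 and 4.16 FPKM in the double mutant at L3, against 3.79 to 5.71 FPKM in xol-1 and 4.05 to 5.59 FPKM in wild type, ranges that overlap. Which part of sex-1 the gk829 allele affects is not given in the sources used here. The L3 libraries held transcripts of muscle, intestine, hypodermis, neurons and pharynx, while of the germline markers glh-1 was present and pgl-1 was at or near 0 in every library. Whether this reflects the level of pgl-1 or how it was counted was not tested.

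At L3 the order of the 4 genes was the same in all 12 libraries. lin-32 lay between 16.4 and 24.4 FPKM (median 22.2), above 66.3 to 71.8% of the genes of its library. mab-23 lay between 3.16 and 7.22 FPKM (median 5.69), above 48.7 to 56.8% of genes. mab-3 lay between 0.785 and 1.83 FPKM (median 1.18), above 36.7 to 44.6% of genes. These 3 ranges do not overlap, and all of dmd-3's values, 0 to 0.309 FPKM, lie below them. dmd-3 was listed at 0 in 4 of the 12 libraries and was under the level of 3 fragments in 6, a limit that stood at 0.0662 to 0.111 FPKM for this gene and covers counting error only. The levels rested on approximately 275 to 446 fragments per library for lin-32, 51.6 to 148 for mab-23, 30.5 to 90.0 for mab-3 and 0 to 11.8 for dmd-3. Only 3 of the 4 genes reached a mean of 1 FPKM over the L3 libraries, the minimum set for the main test.

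**Figure D1:**
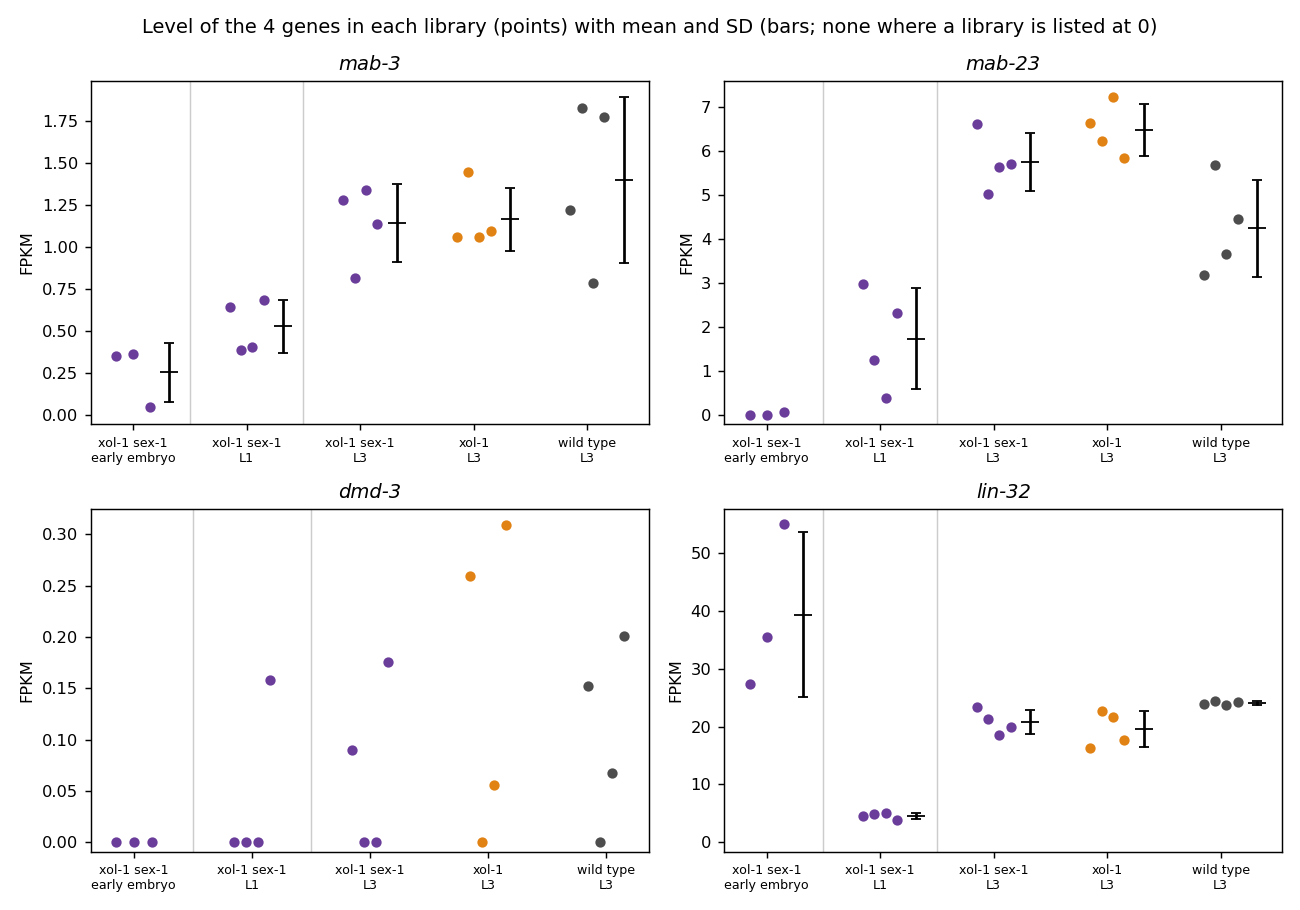
FPKM of mab-3, mab-23, dmd-3 and lin-32 in each of the 19 libraries, by genotype and stage, with the mean and SD of each group beside its points where no library is listed at 0; each panel has its own scale. lin-32 is highest in double-mutant embryos (27.4 to 55.1 FPKM) and lowest at L1 (3.85 to 5.03 FPKM), mab-23 is near 0 in embryos and reaches 3.16 to 7.22 FPKM at L3, and dmd-3 stays at or below 0.309 FPKM.

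Across the stages of the double mutant, mab-3 and mab-23 were lowest in embryos, lin-32 was lowest in L1 larvae and dmd-3 was at or near 0 throughout. The 3 stages were deposited as 3 tables that may have been normalised separately, so levels are set side by side without a test. mab-3, which in males represses yolk genes in the intestine and is needed for ray formation, stood at 0.349, 0.361 and 0.0472 FPKM in the 3 embryo libraries. Its L1 values were 0.641, 0.384, 0.402 and 0.682 FPKM, and its L3 values were 1.28, 0.817, 1.34 and 1.14 FPKM. Each stage lay above the one before it with no overlap between libraries.

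mab-23, which shapes the male tail, its rays and its mating muscles, was listed at 0 in 2 embryo libraries and stood at 0.056 FPKM in the third, under the 3-fragment level of 0.132 to 0.166 FPKM. At L1 its values were 2.98, 1.23, 0.373 and 2.32 FPKM, the lowest of which rests on about 3.94 fragments. At L3 they were 6.60, 5.01, 5.63 and 5.70 FPKM, all above the highest L1 value. The L1 values spread with an SD of 1.15 around a mean of 1.72 FPKM, against an SD of 0.658 around 5.74 FPKM at L3.

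dmd-3, which together with mab-3 drives the reshaping of the male tail tip, was listed at 0 in all 3 embryo libraries, where the 3-fragment level was 0.0649 to 0.0820 FPKM. It was also at 0 in 3 of the 4 L1 libraries and stood at 0.158 FPKM in L1 replicate 4. At L3 it was 0.0894, 0, 0 and 0.175 FPKM in the double mutant. No stage gave a level that could be told from a few fragments.

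lin-32 took another course. Its embryo values were 27.4, 35.5 and 55.1 FPKM, above 75.8 to 84.1% of the genes in the library. At L1 it stood at 4.49, 4.92, 5.03 and 3.85 FPKM, above 54.1 to 56.7% of genes. At L3 it was 23.5, 21.3, 18.5 and 20.003 FPKM, with every L3 library above every L1 library and below every embryo library. The embryos were released from adults by bleaching, and their libraries also held 4834 to 7713 FPKM of yolk protein transcripts and 760 to 1459 FPKM of col-19, an adult collagen gene. The share of adult RNA in the levels of these 4 genes in embryos was not tested.

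**Figure D2:**
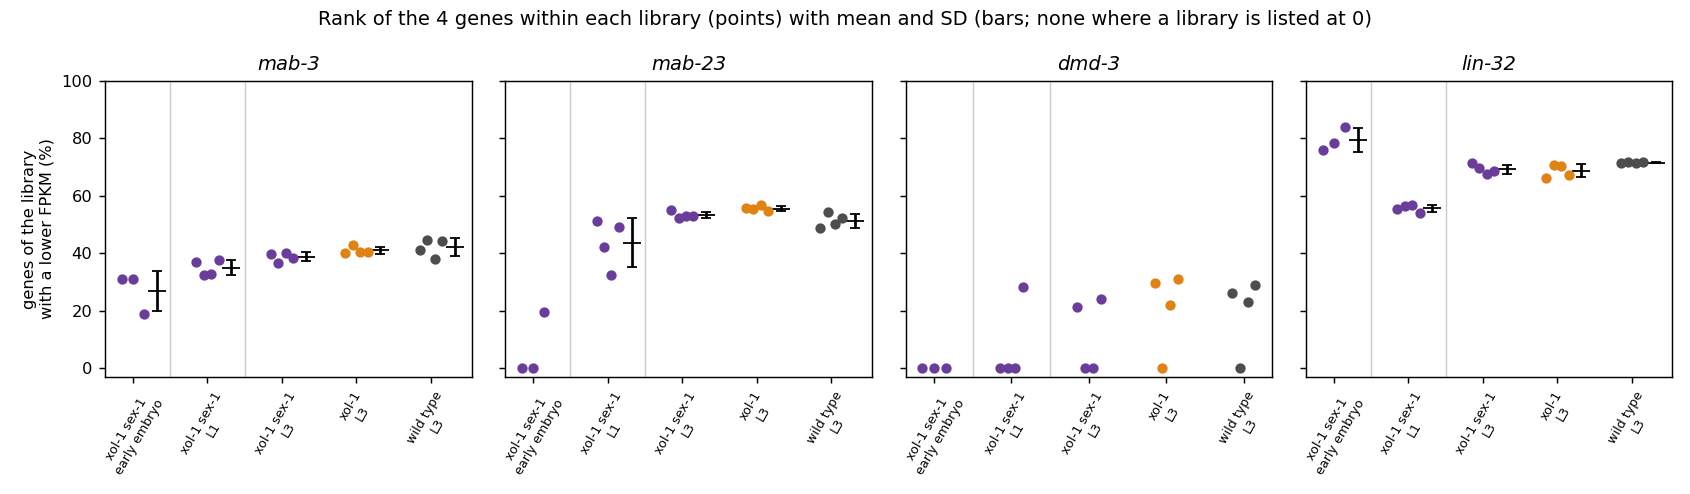
Percentage of the genes of a library that lie below each of the 4 genes, a rank that does not depend on how a library was scaled, for all 19 libraries by genotype and stage. At L3 lin-32 ranks above 66.3 to 71.8% of genes, mab-23 above 48.7 to 56.8%, mab-3 above 36.7 to 44.6% and dmd-3 above 0 to 31.2%.

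The genotypes were compared at L3 only. The question a comparison of the double mutant with xol-1 addresses is what the sex-1 allele adds once xol-1 is already mutant. Of the 3 genes tested 0 passed between the double mutant and xol-1 by limma with a Benjamini-Hochberg adjusted p under 0.05, at an unadjusted p of 0.286 or more, where 49.2% of all 13502 genes tested passed (22.9% higher and 26.3% lower in the double mutant). The 2 genotypes overlapped for each of the 3, where 43.3% of all genes tested had values that did not overlap. Their values follow gene by gene, in the order mab-3, mab-23, lin-32. The comparisons with wild type share the wild-type libraries, and the double mutant or xol-1 libraries stand in 2 comparisons each, so the 3 sets of values are not independent.

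mab-3 was 1.28, 0.817, 1.34 and 1.14 FPKM in the double mutant, 1.06, 1.45, 1.06 and 1.09 FPKM in xol-1 and 1.22, 1.83, 0.785 and 1.78 FPKM in wild type. The 3 genotypes overlapped, and wild type held both the highest and the lowest value. The double mutant differed from xol-1 by -0.02 on the log2(FPKM + 1) scale (SE 0.15, 95% interval -0.35 to 0.32; limma, Benjamini-Hochberg adjusted p = 0.938), an estimate whose sign turned when columns were rescaled to a common sum (0.04). The estimates against wild type were -0.15 for the double mutant (-0.48 to 0.19; limma adjusted p = 0.448) and -0.13 for xol-1 (-0.46 to 0.21; limma adjusted p = 0.570).

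mab-23 was the gene of the 4 that stood higher in both mutants. It was 6.60, 5.01, 5.63 and 5.70 FPKM in the double mutant, 6.63, 6.23, 7.22 and 5.83 FPKM in xol-1 and 3.16, 5.68, 3.66 and 4.44 FPKM in wild type. All 4 xol-1 libraries lay above all 4 wild-type libraries, whereas replicates 2 and 3 of the double mutant lay below wild-type replicate 2, the highest of its group. In xol-1 the gene rose 1.45-fold over wild type on the FPKM + 1 scale (log2 0.53, SE 0.14, 95% interval 0.24 to 0.83; limma, Benjamini-Hochberg adjusted p = 0.0103). The double mutant showed a 1.30-fold rise over wild type (log2 0.38, SE 0.14, 0.08 to 0.68; limma adjusted p = 0.0325). The double mutant and xol-1 differed by -0.15 (-0.45 to 0.14; limma adjusted p = 0.380).

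An exact two-sided permutation test on the FPKM values of mab-23 gave p = 0.0286 for xol-1 against wild type, the smallest that 4 against 4 libraries allow, and 0.135 after Benjamini-Hochberg adjustment over 20381 genes. For the double mutant against wild type the exact p was 0.0857. The limma call for the double mutant was lost when wild-type replicate 1, the lowest library, was left out (log2 0.28, limma adjusted p = 0.0991) and without wild-type replicate 3 or double-mutant replicate 1, 3 or 4 (limma adjusted p = 0.0556 to 0.0888). It was also lost when only the 2 genotypes were fitted (limma adjusted p = 0.0572). The call for xol-1 was kept without any single library (log2 0.43 to 0.66).

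dmd-3 was 0.0894, 0, 0 and 0.175 FPKM in the double mutant, 0.26, 0, 0.0554 and 0.309 FPKM in xol-1 and 0.152, 0, 0.0677 and 0.201 FPKM in wild type. Each genotype held at least 1 library listed at 0, and the genotypes overlapped in every comparison. Exact two-sided permutation tests gave p = 0.371 for the double mutant against xol-1, 0.600 for xol-1 against wild type and 0.571 for the double mutant against wild type. A difference in dmd-3 was not detectable at this depth.

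lin-32 stood lower in both mutants than in wild type, by a small amount. It was 23.5, 21.3, 18.5 and 20.003 FPKM in the double mutant, 16.4, 22.6, 21.7 and 17.7 FPKM in xol-1 and 24.0, 24.4, 23.8 and 24.3 FPKM in wild type. All 8 mutant libraries lay below the lowest wild-type library, and the SD over 4 libraries was 2.10 FPKM in the double mutant and 3.04 FPKM in xol-1, against 0.295 FPKM in wild type. In xol-1 the gene fell to 0.813 of wild type on the FPKM + 1 scale (log2 -0.30, SE 0.10, 95% interval -0.51 to -0.09; limma, Benjamini-Hochberg adjusted p = 0.0357). In the double mutant the estimate was -0.21 (SE 0.10, -0.42 to 0.01) and did not pass (limma adjusted p = 0.0941). The double mutant and xol-1 differed by 0.09 (-0.12 to 0.31, limma adjusted p = 0.468). The call in xol-1 and not in the double mutant therefore does not show a difference between them, nor does it show that they are equal.

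Exact two-sided permutation tests of lin-32 gave p = 0.0286 for each mutant against wild type, the smallest possible, and 0.135 for xol-1 and 0.0749 for the double mutant after Benjamini-Hochberg adjustment over 20381 genes. The limma call for xol-1 was lost with no filter on low genes (limma adjusted p = 0.0566), without xol-1 replicate 1, which had the lowest value (log2 -0.22, limma adjusted p = 0.107), and without xol-1 replicate 4 or any single wild-type library (limma adjusted p = 0.0622 to 0.104). Conversely, the double mutant passed when only its libraries and wild type were fitted (limma adjusted p = 0.0331) and without its replicate 1 (log2 -0.26, limma adjusted p = 0.0487).

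These counts are read against those over all genes. In xol-1 against wild type 1 of the 3 genes tested rose and 1 fell, where 30.7% of all genes tested passed (16.0% higher, 14.7% lower) and 29.6% had genotypes that did not overlap, as 2 of these 3 did. In the double mutant against wild type 1 of the 3 rose and 0 fell, where 53.3% passed (25.2% higher, 28.1% lower) and 49.8% did not overlap, as 1 of these 3 did. When columns were rescaled to a common sum, the median of all genes in xol-1 against wild type moved to -0.12 log2 units, against -0.00 as deposited. Relative to that median, mab-23 was at 0.54 and lin-32 at -0.31, against 0.53 and -0.30 as deposited. The same rescaling changed the share of called genes that were higher to 26.5% from 52.0% in that comparison, and to 63.3% from 46.6% in the double mutant against xol-1.

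**Figure D3:**
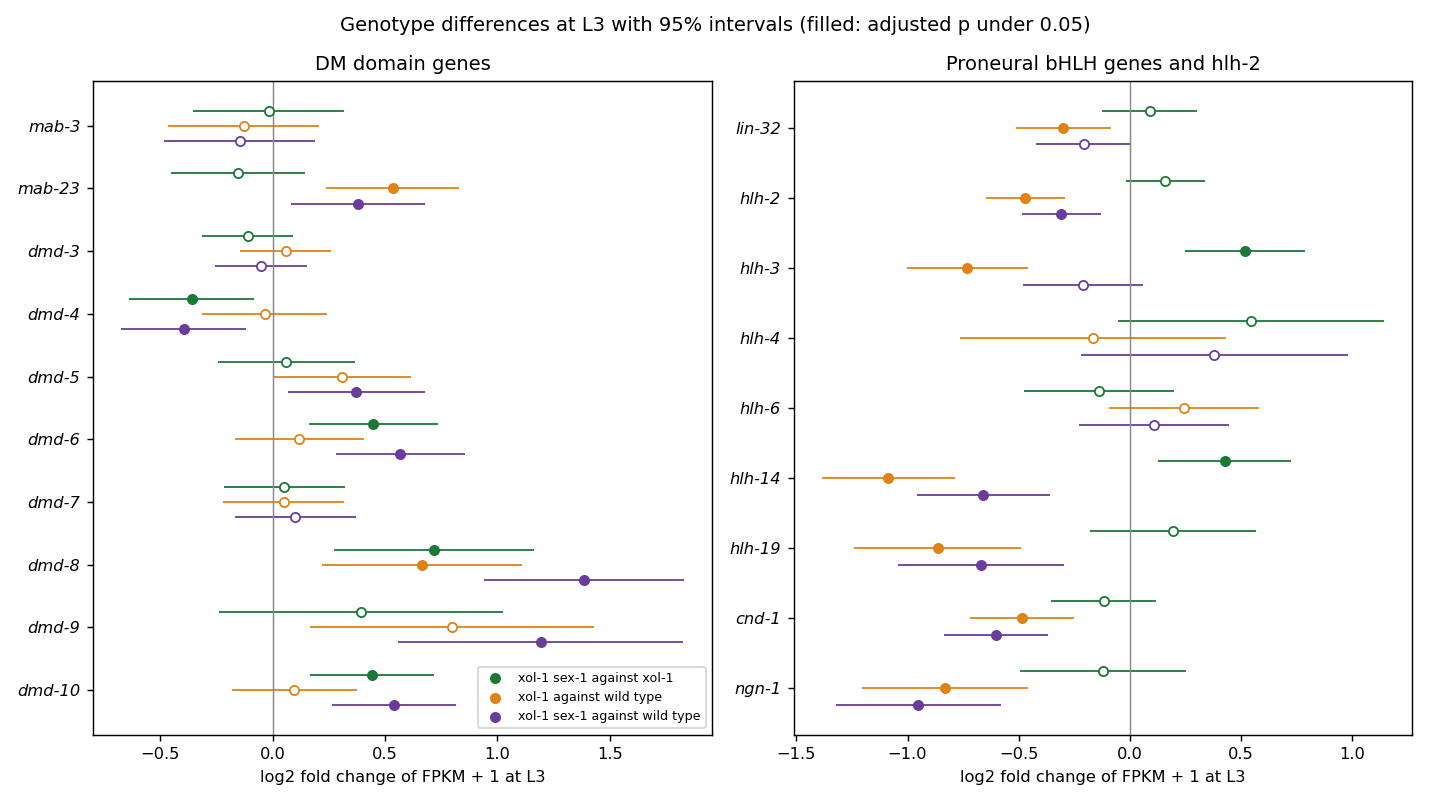
Differences between genotypes at L3 for the DM domain genes (left) and the proneural bHLH genes with hlh-2 (right), as log2 fold changes of FPKM + 1 with 95% intervals from limma; positive means higher in the first-named genotype, and filled points have an adjusted p under 0.05. mab-23 lies at 0.38 and 0.53 against wild type, lin-32 at -0.21 and -0.30, and dmd-8 has the largest estimate among the DM domain genes (1.38).

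mab-3, mab-23 and dmd-3 were then set beside the other DM domain genes. Of 11 listed family members 10 were matched to the tables and 9 reached the minimum level. In the double mutant against wild type 6 of 9 rose and 1 fell (median 0.38, against -0.03 over all genes), where 25.2% of all genes tested rose and 28.1% fell. In xol-1 against wild type 2 rose and 0 fell (median 0.12, against -0.00), where 16.0% of all genes rose and 14.7% fell. In the double mutant against xol-1 3 rose and 1 fell (median 0.06, against -0.02), where 22.9% of all genes rose and 26.3% fell. The 2 in xol-1 became 4 without wild-type replicate 1, and 1 without wild-type replicate 2 or 4 or xol-1 replicate 1 or 4. mab-23 was thus 1 of the 6 and 1 of the 2. The genes that rose in the double mutant against both xol-1 and wild type were dmd-6, dmd-8 and dmd-10, and dmd-4 fell against both.

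dmd-8, on chromosome V and free of overlapping genes, was 3.92, 3.33, 4.23 and 4.62 FPKM in the double mutant, 3.00, 1.75, 1.30 and 2.37 FPKM in xol-1 and 1.69, 0.566, 1.12 and 0.510 FPKM in wild type. The double mutant lay above both other genotypes with no overlap, and xol-1 and wild type overlapped. The log2 differences were 0.72 against xol-1 (SE 0.21; limma, Benjamini-Hochberg adjusted p = 0.0114) and 1.38 against wild type (SE 0.21; limma adjusted p = 0.000119), and that of xol-1 against wild type was 0.67 (SE 0.21; limma adjusted p = 0.0262), a call lost without any of 4 single libraries (xol-1 replicate 1 or 4, wild-type replicate 2 or 4; limma adjusted p = 0.071 to 0.0814). dmd-9 averaged 9.21 ± 1.73 FPKM in the double mutant, 6.94 ± 2.34 in xol-1 and 3.76 ± 2.31 in wild type (SD, n = 4 each) and rose in the double mutant against wild type (log2 1.19, SE 0.29; limma adjusted p = 0.00422).

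dmd-6 was the most abundant DM domain gene, at 173 ± 18.997 FPKM in the double mutant, 128 ± 26.8 in xol-1 and 116 ± 12.1 in wild type (SD, n = 4 each). It rose in the double mutant by 0.45 against xol-1 (SE 0.13; limma, Benjamini-Hochberg adjusted p = 0.0140) and by 0.57 against wild type (SE 0.13; limma adjusted p = 0.00313). Its L1 level was 373 to 411 FPKM and its embryo level 21.4 to 33.2 FPKM. dmd-10 rose by 0.44 and 0.54 in the same 2 comparisons (limma adjusted p = 0.0123 and 0.00338), and dmd-5 rose by 0.37 in the double mutant against wild type (limma adjusted p = 0.0397). dmd-4, which has a role in sex-specific neuron connections, averaged 5.22 ± 0.686 FPKM in the double mutant, 7.04 ± 1.35 in xol-1 and 7.16 ± 0.639 in wild type (SD, n = 4 each), and fell by 0.36 and 0.40 on the log2 scale (limma adjusted p = 0.0334 and 0.0198). The fall of dmd-4 was not called against xol-1 on rescaling (-0.27, limma adjusted p = 0.0962) or without xol-1 replicate 1, 3 or 4 or double-mutant replicate 1 or 4, nor against wild type without double-mutant replicate 1 or wild-type replicate 3 (limma adjusted p = 0.0563 to 0.103 over these). The rise of dmd-5 was lost without any double-mutant library, xol-1 replicate 1 or wild-type replicate 2, 3 or 4 (limma adjusted p = 0.0508 to 0.106), and with replicate number as a block (limma adjusted p = 0.0652). dmd-7 did not pass in any comparison.

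The other DM domain genes lay higher at L1 than the 3 male regulators. At that stage dmd-9 lay at 29.9 to 39.1 FPKM, dmd-10 at 13.5 to 16.9, dmd-7 at 9.77 to 12.01 and dmd-8 at 5.70 to 6.67, all above the highest L1 value of mab-23. All 4 were lower at L3 in the double mutant, whereas mab-3 and mab-23 were higher at L3 than at L1. The genes dmd-4, dmd-5, dmd-6, dmd-7 and dmd-10 share their span with other annotated genes, so their values carry the same limit as those of mab-23.

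lin-32 was set beside the bHLH genes of its kind. The list held hlh-3, hlh-4, hlh-6, hlh-14 and hlh-19 of the achaete-scute type, cnd-1, the NeuroD gene, ngn-1, the neurogenin gene, and hlh-2, the common partner of these proteins. All 9, lin-32 included, were tested. In xol-1 against wild type 7 of 9 fell, lin-32 among them, and 0 rose (median -0.48, against -0.00 over all genes), where 14.7% of all genes tested fell. Against the same wild-type libraries 5 fell and 0 rose in the double mutant (median -0.31, against -0.03), where 28.1% of all genes fell. In the double mutant against xol-1 2 rose and 0 fell (median 0.16, against -0.02), where 22.9% of all genes rose, and 1 rose without double-mutant replicate 1 or 4 or xol-1 replicate 4.

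hlh-14 averaged 16.0 ± 3.17 FPKM in the double mutant, 11.6 ± 1.87 in xol-1 and 25.6 ± 2.99 in wild type (SD, n = 4 each). It fell by 1.09 on the log2 scale in xol-1 against wild type (SE 0.14; limma, Benjamini-Hochberg adjusted p = 9.8e-05) and by 0.66 in the double mutant (SE 0.14; limma adjusted p = 0.00149), and the double mutant was higher than xol-1 by 0.43 (SE 0.14; limma adjusted p = 0.0216). The last of these calls was lost without double-mutant replicate 1 or 4 or xol-1 replicate 4 (limma adjusted p = 0.0589 to 0.0679). hlh-3 was also higher in the double mutant than in xol-1 (log2 0.52, SE 0.13; limma adjusted p = 0.00435), and fell in xol-1 against wild type (-0.73, SE 0.13; limma adjusted p = 0.000753) without passing in the double mutant (-0.21; limma adjusted p = 0.176). These were the 2 genes of the list that passed between the mutants.

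ngn-1 averaged 8.31 ± 1.71 FPKM in the double mutant, 9.25 ± 2.74 in xol-1 and 16.8 ± 1.49 in wild type (SD, n = 4 each). Both mutants lay below wild type with no overlap, by 0.95 and 0.83 log2 units (SE 0.17 each; limma, Benjamini-Hochberg adjusted p = 0.000522 and 0.00274). hlh-2, cnd-1 and hlh-19 also fell in both mutants, with hlh-2 at 35.4 ± 3.74 FPKM in the double mutant and 31.6 ± 3.21 in xol-1, against 44.0 ± 1.75 in wild type (SD, n = 4 each). lin-32 lay in the same direction with the smallest of these 7 falls in xol-1. hlh-4 and hlh-6 did not pass in any comparison.

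**Figure D4:**
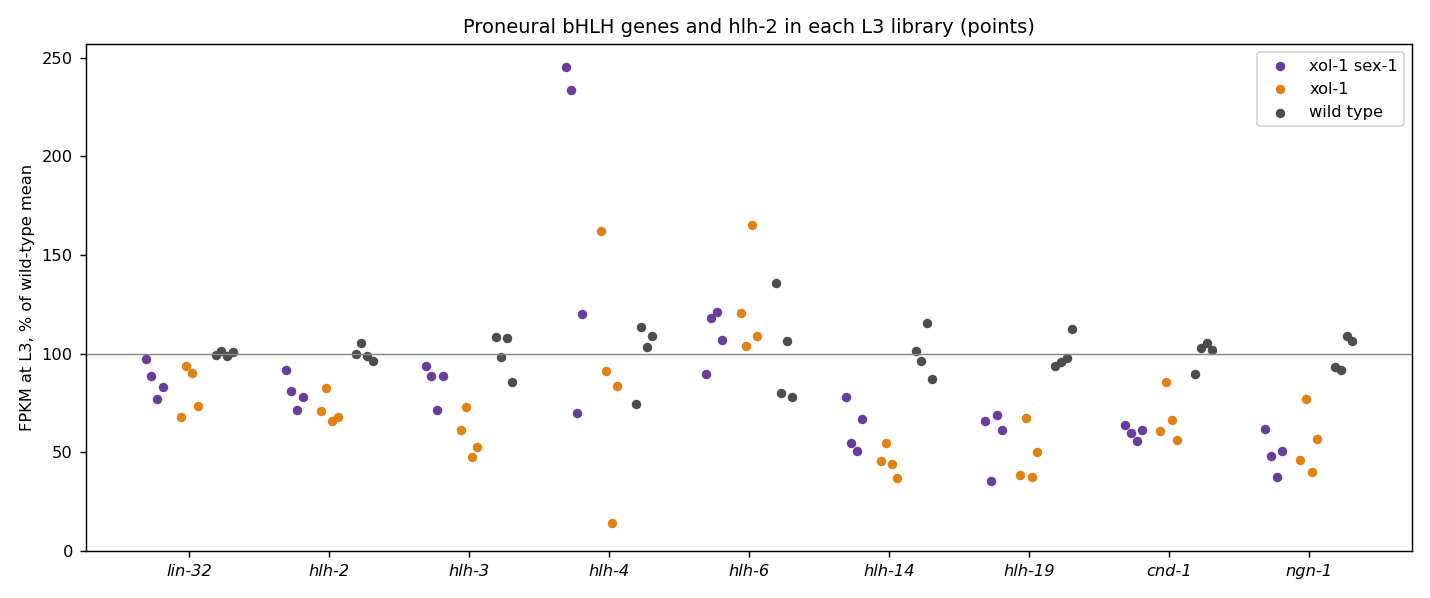
FPKM of lin-32, hlh-2 and 7 further proneural bHLH genes in each of the 12 L3 libraries, as a percentage of the wild-type mean of that gene; each point is 1 library. For ngn-1 the double mutant lies at 37.3 to 62.0% and xol-1 at 39.9 to 77.1%, against 91.6 to 109% in wild type, and hlh-4 is the most scattered gene.

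By stage, the sum of the 9 proneural genes in the double mutant was 176 to 263 FPKM in embryos, 30.9 to 33.8 at L1 and 94.4 to 125 at L3. lin-32 is part of this sum. Taken singly, hlh-2, hlh-3, hlh-14, cnd-1 and ngn-1 had means in the order that lin-32 showed, and hlh-4, hlh-6 and hlh-19 did not. At L3 the sum was 86.9 to 113 FPKM in xol-1 and 139 to 152 FPKM in wild type. Genes that mark the time within a larval stage differed between the genotypes as well. The 9 molt and stage markers summed to 719 to 793 FPKM in the double mutant, 526 to 688 in xol-1 and 814 to 1030 in wild type. Most of each sum is mlt-8, which averaged 528 FPKM in the double mutant, 416 in xol-1 and 633 in wild type. mlt-11 was listed at 0 in all libraries, which may reflect how it was counted. Of 6 markers tested, 3 fell in each mutant against wild type and 0 rose, where 28.1% of all genes fell in the double mutant and 14.7% in xol-1. In xol-1 the median of the 6 was -0.36, against -0.00 over all genes, and 5 estimates were negative. In the double mutant the median was -0.04, against -0.03 over all genes, and 3 estimates were negative, so the list as a whole showed no shift there. mlt-8 fell by 0.61 in xol-1 and by 0.26 in the double mutant (limma, Benjamini-Hochberg adjusted p = 0.000397 and 0.0354). In the double mutant the count of falls was 1 without its replicate 3 or 4 or wild-type replicate 2 or 3. There mlt-8 was not called without any of these or wild-type replicate 1 (limma adjusted p = 0.0701 to 0.101). The part of developmental timing in the differences of lin-32, mab-23 and the other genes was not tested, and in whole worms fewer cells of a type and less RNA per cell cannot be told apart.

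Upstream of these genes, several sex determination genes differed between the genotypes by small amounts. tra-1, whose protein represses mab-3 and dmd-3 in hermaphrodites, averaged 17.8 ± 1.62 FPKM in the double mutant, 19.1 ± 2.32 in xol-1 and 18.9 ± 2.05 in wild type (SD, n = 4 each) and was not called in any comparison. her-1, the secreted signal of males, stayed at or below 0.293 FPKM in the L3 libraries and was not tested. Of the 6 genes of this list that were tested, 3 rose and 1 fell in the double mutant against wild type, 1 rose and 1 fell in xol-1 against wild type, and 2 rose and 2 fell in the double mutant against xol-1, that is 4, 2 and 4 of 6 called, where 53.3%, 30.7% and 49.2% of all genes tested passed. Between the mutants the falls became 0 on rescaling and 1 without double-mutant replicate 1 or 4 or xol-1 replicate 4. In xol-1 the rises became 2 without its replicate 3. The sizes were small: fem-2, a phosphatase that promotes male fate, rose by 0.42 in the double mutant against wild type (limma, Benjamini-Hochberg adjusted p = 0.00037), and tra-2, the receptor for HER-1, rose by 0.27 (limma adjusted p = 0.00465). fem-3 fell by 0.34 in xol-1 against wild type (limma adjusted p = 0.00653).

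Downstream, the yolk protein genes that MAB-3 represses in males were all below the minimum of 1 FPKM at L3. Their 6 levels summed to 0.413 to 0.528 FPKM in the double mutant, 0.231 to 0.577 in xol-1 and 0.159 to 0.229 in wild type, and members of this family are similar enough that fragments may be split among them. With no filter on low genes, vit-3 and vit-4 rose in the double mutant against wild type by 0.08 and 0.10 on the log2(FPKM + 1) scale (limma, Benjamini-Hochberg adjusted p = 0.0397 and 0.0257), and vit-3 rose by 0.09 against xol-1 (limma adjusted p = 0.0292). Their means were 0.0934 and 0.148 FPKM in the double mutant, against 0.0358 and 0.0714 in wild type. Whether levels this low at L3 reflect the action of MAB-3 was not tested. Markers of male-specific and IL2 sensory neurons summed to 14.1 to 16.5 FPKM in the double mutant, 13.6 to 18.6 in xol-1 and 12.6 to 16.1 in wild type. Of 9 such genes 3 were tested and 0 were called against wild type in either mutant by limma. Over all genes tested, 53.3% passed in the double mutant against wild type and 30.7% in xol-1. In xol-1, 1 of the 3 rose without xol-1 replicate 2 or wild-type replicate 1. In the double mutant 1 rose without its replicate 3 or xol-1 replicate 2, with only the 2 genotypes compared and with eBayes without trend or robust. Before adjustment, the limma threshold of 0.05 was passed against wild type by 1 of the 3 in the double mutant, cil-7, and by 1 in xol-1, cwp-4. The polycystin genes lov-1 and pkd-2, which define the male-specific cells, were below the minimum, and lov-1 stayed at or below 0.0262 FPKM at L3. pkd-2 lay between 0.195 and 0.365 FPKM in the double mutant and between 0.184 and 0.292 in xol-1, against 0.0242 to 0.0810 in wild type. Both mutants thus lay above wild type without overlap. Over all genes tested, which leave out pkd-2, 49.8% did not overlap in the double mutant against wild type and 29.6% in xol-1. With no filter on low genes pkd-2 rose by 0.27 in the double mutant and by 0.22 in xol-1 against wild type (limma, Benjamini-Hochberg adjusted p = 0.000785 and 0.00643), the 1 gene of this list called higher in xol-1 in that fit. Levels this low may rest on few fragments, and pkd-2 was picked after its values were seen. The share of all genes called in that fit is not given here, for pkd-2 as for vit-3 and vit-4. Between the mutants, cil-7 rose by 0.46 and cwp-4 fell by 0.35 in the double mutant (limma, Benjamini-Hochberg adjusted p = 0.0144 and 0.0377). That is 2 of the 3 tested, where 49.2% of all genes tested passed. The fall of cwp-4 was lost on rescaling, with no filter, with replicate number as a block (limma adjusted p = 0.0591) and without xol-1 replicate 1 or 3 or double-mutant replicate 1, 3 or 4 (limma adjusted p = 0.0517 to 0.116).

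The tail tip list, genes that act with dmd-3 or time its action, gave 2 of 7 tested higher and 3 lower in the double mutant against wild type, 1 higher and 3 lower in xol-1 against wild type, and 3 higher and 1 lower in the double mutant against xol-1. Thus 5, 4 and 4 of 7 were called, where 53.3%, 30.7% and 49.2% of all genes tested passed. The 2 became 1 without double-mutant replicate 1 or wild-type replicate 1 or 4, and the 3 lower in xol-1 became 1 without xol-1 replicate 3 or 4 or wild-type replicate 2. nhr-67, a nuclear receptor of the tailless type, averaged 9.60 ± 1.998 FPKM in the double mutant, 5.65 ± 0.495 in xol-1 and 3.43 ± 0.924 in wild type (SD, n = 4 each). It rose by 1.26 in the double mutant against wild type (SE 0.16; limma, Benjamini-Hochberg adjusted p = 4e-05), by 0.61 in xol-1 against wild type (limma adjusted p = 0.0124) and by 0.65 between the mutants (limma adjusted p = 0.00501). lep-2, which times male maturation, rose in the double mutant by 0.30 against xol-1 (limma adjusted p = 0.00912). lin-41, which holds back tail tip development, was at 0.552 FPKM in 1 double-mutant L3 library and listed at 0 in the other 3 and in all xol-1 and wild-type L3 libraries. It was also at 0 in all embryo libraries and in 2 of the 4 L1 libraries. Whether these values reflect the level of lin-41 or how it was counted was not tested. nhr-67, like tra-2, cwp-4, egl-5, efn-4, mab-21 and unc-86, shares its span with other annotated genes and carries the limit given for mab-23.

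The ray patterning list, genes that act beside lin-32, mab-3 and mab-23 in the male tail, gave 2 of 14 tested higher and 4 lower in the double mutant against wild type, 1 and 4 in xol-1 against wild type, and 3 and 5 in the double mutant against xol-1. The called genes were 6, 5 and 8 of 14, where 53.3%, 30.7% and 49.2% of all genes tested passed. The 2 became 1 on rescaling and without double-mutant replicate 1 or 4 or wild-type replicate 1 or 2, the 1 in xol-1 became 2 without its replicate 2 or 3, and of the last pair the 3 became 1 without double-mutant replicate 4 and the 5 became 3 on rescaling. egl-5, the Abdominal-B type Hox gene, averaged 12.6 ± 1.81 FPKM in the double mutant, 18.3 ± 4.23 in xol-1 and 21.4 ± 3.50 in wild type (SD, n = 4 each), and fell in the double mutant by 0.72 against wild type and by 0.50 against xol-1 (limma, Benjamini-Hochberg adjusted p = 0.00206 and 0.0199), the second of which was lost on rescaling and without double-mutant replicate 4 or xol-1 replicate 2 or 3 (limma adjusted p = 0.0552 to 0.0629). mab-9, a T-box gene, fell by 0.63 in the double mutant against wild type (limma adjusted p = 0.000143), and efn-4, an ephrin, fell by 0.56 (limma adjusted p = 4.5e-05). lin-22, a hairy-type bHLH gene that limits where lin-32 acts, fell by 0.70 in the double mutant against xol-1 (limma adjusted p = 0.00291). mab-21 rose by 0.47 in xol-1 against wild type and fell by 0.52 in the double mutant against xol-1 (limma adjusted p = 0.000776 and 0.00024).

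The touch and dopamine neuron list holds markers of cells whose lineages use lin-32 or mab-23. In the double mutant the 7 genes that fell against wild type were unc-86 and the 6 mec genes, and dat-1, of the 2 dopamine genes tested, rose. A difference between the cell types was not tested. Each of the 4 genes listed for dopamine neurons had a double-mutant mean above that of wild type, at 3.78 against 1.96 FPKM for dat-1, 2.33 against 1.48 for bas-1, 1.22 against 0.722 for cat-1 and 0.196 against 0.0802 for cat-2. Of these, dat-1 was called, bas-1 was tested and not called, and cat-1 and cat-2 were under the minimum and not tested. The values of bas-1, cat-1 and cat-2 were added after they were seen, so their shared direction is a description only. Against wild type the counts were thus 7 lower and 1 higher of 9 tested (median -0.59, against -0.03 over all genes), where 28.1% of all genes fell and 25.2% rose. In xol-1 against wild type 3 fell and 1 rose (median -0.14), where 14.7% of all genes fell and 16.0% rose, and in the double mutant against xol-1 5 fell and 0 rose (median -0.33), where 26.3% of all genes fell. The 1 rise in the double mutant against wild type became 2 without double-mutant replicate 1. The last count of falls became 2 on rescaling and 3 without double-mutant replicate 3 or 4, and the 1 rise in xol-1, dat-1, became 0 without xol-1 replicate 1, 3 or 4 or wild-type replicate 2, 3 or 4, and with replicate number as a block (limma adjusted p = 0.0521). unc-86, a POU factor of many neuron types that acts beside lin-32 in touch neuron lineages, averaged 61.2 ± 7.05 FPKM in the double mutant, 77.2 ± 11.7 in xol-1 and 104 ± 6.09 in wild type (SD, n = 4 each). It fell by 0.76 in the double mutant against wild type (SE 0.10; limma, Benjamini-Hochberg adjusted p = 5.7e-05) and by 0.43 in xol-1 (limma adjusted p = 0.00632). mec-7, a tubulin of touch neurons, fell by 0.61 in the double mutant against wild type (limma adjusted p = 0.000728), and dat-1, the dopamine transporter, rose by 0.71 (limma adjusted p = 0.0105).

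Of the general neuron markers, rab-3 averaged 29.5 ± 3.43 FPKM in the double mutant, 42.0 ± 2.85 in xol-1 and 38.6 ± 3.50 in wild type (SD, n = 4 each), and fell in the double mutant by 0.38 against wild type and by 0.50 against xol-1 (limma, Benjamini-Hochberg adjusted p = 0.00364 and 0.000751). unc-119 was not called against wild type in either mutant (limma adjusted p = 0.202 in the double mutant and 0.957 in xol-1). The part of neuron number in the differences of lin-32 and the touch neuron genes was not tested.

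The genes most like each member over the 12 L3 libraries, by Pearson's r of log2(FPKM + 1) among genes averaging 1 FPKM or more, are given as a description, since the libraries share genotype groups and the highest of 13501 correlations is high by selection. For mab-23 they were Y105E8B.6 (r = 0.922), crn-3 (0.899) and nol-9 (0.891). For lin-32 they were hmg-1.2 (0.915), tmem-218 (0.886) and WBGene00005982 (0.877). For mab-3 they were aat-3 (0.858), R01H2.8 (0.800) and pipp-4P (0.791). The 3 genes like mab-23 averaged highest in xol-1 and lowest in wild type, and the 3 like lin-32 averaged highest in wild type and lowest in xol-1, as the 2 genes themselves did. dmd-3, with 0 to 11.8 fragments per library, gave no likeness that can be read.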

How the data were processed

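Poly(A) RNA of 19 libraries in 5 groups was sequenced after random priming with a directional kit, per the labels' protocols. The authors deposited FPKM values in 3 tables, one per stage; 13 columns that match no sample here were not used. The submitters' processing notes name cutadapt 2.3, FastQC 0.11.8, Salmon 1.9.0, DESeq2 1.42.0 and build WBcel235, without roles; how FPKM were scaled is not given in the sources used here. Column sums differed (1490760 to 1717680 at L3) while upper quartiles were close (28.9 to 30.0), so a scaling factor may be present. Positions and symbols are those of Ensembl's WBcel235 gene set, release 115, which matched all 21975 identifiers; dmd-11 was not matched and is not analysed here.

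For L3, limma 3.58.1 was run in R 4.3.3 (statmod 1.5.0; robust eBayes with a trend) on log2(FPKM + 1), pseudocount 1, over the 13502 genes averaging 1 FPKM or more, all 12 libraries sharing one spread, two-sided, with Benjamini-Hochberg adjustment and a threshold of 0.05. Fold changes on this scale understate those of low genes. dmd-3, under the minimum, was fitted among the 20381 genes with a mean above 0. An exact permutation test of 4 against 4 FPKM values stood beside it. Fragments were estimated from the spacing of the lowest values of genes with 1 transcript of at least 1000 bases and from the longest transcript, so they are approximate; intervals and the 3-fragment level cover counting error only. Python 3.11.15, numpy 2.4.6, pandas 2.3.3, scipy 1.17.1 and matplotlib 3.10.9 were used. The procedure was tested on simulated data.

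The genes named are the 4 genes, the DM domain family, the 3 genes most like each, and up to 4 called genes with the largest change per further list and comparison, with xol-1 and sex-1; tra-1, her-1, lov-1, lin-41, col-19, mlt-11, hlh-2, rab-3, unc-119, pgl-1 and the unchanged proneural genes are list members named for their role or to complete a count; pkd-2, vit-3, vit-4, bas-1, cat-1, cat-2 and the rab-3 difference between the mutants were added after their values were seen. The 4 genes and all lists were chosen with earlier results of these data known. Alternatives were a pseudocount of 0.1, no filter, columns rescaled to a common sum, only the 2 genotypes compared, eBayes without trend or robust, replicate number as a block, and leaving out each library.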

Additional observations from a re-analysis of the deposited data

Results flagged for a closer look

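Among 44 groups of 4 libraries of the DM domain genes and lin-32, 4 held a library apart from its group by Dixon's criterion at 95%, and chance alone gives about 1 in 20. mab-3 stood at 1.447 FPKM in xol-1 L3 replicate 2, against 1.06 to 1.09 in the other libraries of that group. dmd-3 stood at 0.1585 FPKM in double-mutant L1 replicate 4 and was listed at 0 in the others, and about 2.91 fragments carry that value. dmd-7 stood at 12.01 FPKM in double-mutant L1 replicate 1, against 9.77 to 9.95 in the others. dmd-9 stood at 6.633 FPKM in double-mutant L3 replicate 1, against 9.86 to 10.4 in the others.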

How the results depend on the processing

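The number of genes called in each comparison stayed within 1.5 times under every alternative run. Among the 4 genes, mab-3 in the double mutant against xol-1 turned to 0.040 on rescaling, and ran from -0.062 to 0.060 without single libraries (0.060 without double-mutant replicate 2 and 0.042 without xol-1 replicate 2). dmd-3 in xol-1 against wild type ran from -0.0038 to 0.13 without single libraries. lin-32 in xol-1 against wild type ran from -0.37 to -0.22 without single libraries (limma adjusted p = 0.0112 to 0.107) and was no longer called with no filter (-0.30). mab-23 in the double mutant against wild type ran from 0.28 to 0.51 (limma adjusted p = 0.00452 to 0.0991) and was no longer called with only the 2 genotypes compared (0.38). lin-32 in the double mutant against wild type ran from -0.26 to -0.15 and was called with only the 2 genotypes compared (-0.21). The cause was not tested; without a library the fit also has fewer samples.

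With replicate number as a block, lin-32 in xol-1 against wild type (-0.30, limma adjusted p = 0.0573) and mab-23 in the double mutant against wild type (0.38, limma adjusted p = 0.0637) lost their calls, as did dmd-5, cwp-4, dat-1, lin-14 and lin-42 in 1 comparison each, and the counts of genes called were 6538 for the double mutant against xol-1, 4004 for xol-1 against wild type and 7081 for the double mutant against wild type. The deviations of same-numbered libraries from their genotype means correlated at r from -0.179 to 0.244. No value for differently numbered libraries was set beside these, so whether same-numbered libraries belong together is not known. For dmd-3, replicate 4 was highest and replicate 2 was at 0 in each genotype. The block lowered its SE in the double mutant against xol-1 to 0.043 from 0.093. It was still not called (limma adjusted p = 0.0775, against 0.396 without the block).

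Among the other genes, 97 results under 1731 settings in all were in the same direction and on the same side of the threshold in 1616. The 7 that turned were dmd-5 in the double mutant against xol-1 (-0.012 without xol-1 replicate 4, to 0.16 without other libraries) and, in xol-1 against wild type, dmd-4 (0.079 without xol-1 replicate 2 and 0.0074 without wild-type replicate 3, down to -0.12), dmd-6 (-0.014 on rescaling and -0.0035 without xol-1 replicate 2, up to 0.24) and dmd-7 (-0.017 on rescaling and -0.036 without wild-type replicate 1, up to 0.097), none called in those comparisons. Depth limits dmd-3, which has at most 11.8 fragments in a library. Counts in the gene lists that moved by over 1.5 times without a library or on rescaling are given beside them. With only the 2 genotypes compared, DM domain genes that rose in xol-1 against wild type were 1 against 2, and those that fell in the double mutant against xol-1 were 0 against 1. With no filter, 1 yolk gene rose in the double mutant against xol-1 and 2 against wild type, against 0 with the filter, and 2 ray patterning genes rose in xol-1 against 1.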

Other observations

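Markers of other tissues also differed between the genotypes. Of 9 tissue markers tested, 6 rose and 2 fell in the double mutant against wild type, 1 rose and 1 fell in xol-1 against wild type, and 6 rose and 1 fell in the double mutant against xol-1. That is 8, 2 and 7 of 9 called, where 53.3%, 30.7% and 49.2% of all genes tested passed. The 1 rise in xol-1 became 2 without xol-1 replicate 1 or wild-type replicate 1, and the 1 fall in the double mutant against xol-1 became 2 without xol-1 replicate 3. myo-2, a myosin of the pharynx, averaged 43.3 ± 4.86 FPKM in the double mutant, 9.06 ± 5.97 in xol-1 and 4.99 ± 5.76 in wild type (SD, n = 4 each), and rose in the double mutant by 3.27 against wild type and by 2.35 against xol-1 (limma, Benjamini-Hochberg adjusted p = 0.00059 and 0.00535). Wild-type replicate 1 held 13.6 FPKM of it, and the double mutant held 627 to 735 FPKM at L1. glh-1, a germline helicase, averaged 16.2 ± 1.67 FPKM in the double mutant, 6.75 ± 1.70 in xol-1 and 3.56 ± 1.20 in wild type (SD, n = 4 each), and rose in the double mutant against wild type by 1.94 (limma adjusted p = 4.4e-06). ges-1, an intestinal esterase, rose by 1.002 in the same comparison (limma adjusted p = 1.6e-05), and dpy-7, a hypodermal collagen gene, fell in xol-1 against wild type by 0.59 (limma adjusted p = 0.000489).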
